A study of Mus musculus with 10 samples.

Results

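Ultraconserved elements are long stretches of genome that are identical between human, mouse and rat, and many are transcribed into non-coding RNA. The elements are numbered from uc.1 upwards, and a transcript can come from the plus strand, the minus strand or both. Such transcripts can differ between tissues, and a few have been studied in metabolism: uc.417 in the thermogenesis of brown fat, uc.372 in lipid synthesis in liver and uc.333 in insulin sensitivity.

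All non-control array probes named for an ultraconserved element were taken, which gave 962 of 59709 probes. They cover 481 elements with 1 probe, printed as 1 spot, on each strand. The element numbers run to 483, and uc.11 and uc.32 were not analysed here. Probe sequences and genome positions of the elements were not used here, so neither the host gene nor an exonic or intronic position is given.

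The RNA came from wild-type mice on chow and from wild-type brown adipocytes, hybridised to 10 one-colour arrays. The tissue groups were brown adipose tissue after saline, white adipose tissue after saline and white adipose tissue after CL316,243 (called CL here), a β3-adrenergic agonist that activates thermogenesis, each with 2 arrays. Mice received intraperitoneal injections each day for 7 days, CL at 1 mg/kg. The cells were sampled at days 0, 3, 5 and 7 of differentiation, with 1 array per day. Age, strain, sex, fat depot and the origin of the cells are not given, nor whether an array held RNA of 1 mouse. The p-values therefore measure the spread between these arrays. Of 28 marker genes of fat and other cell types, 27 were in the RefSeq table used for names, and 0 had a probe under the symbol or a RefSeq transcript accession, which 116 probes carry. The tissue labels could therefore not be checked against markers.

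Values are log2 processed signals centred on each array's own 75th percentile, so a value of 0 marks that percentile. A spot is well above background, or marked, when the scanner software flags it so. Levels of different probes were not compared, since each probe has its own affinity. Between 131 and 243 of the 962 element probes (13.6% to 25.3%) exceeded the 95th percentile of negative control spots on an array. Of all other probes 33.5% to 52.2% did so.

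A smaller share of element probes than of other probes was marked well above background. On the brown fat arrays 302 and 403 of the 962 probes carried the mark, on the saline white fat arrays 443 and 510, and on the CL-treated arrays 316 and 344. The cells gave 477, 526, 397 and 433 at days 0, 3, 5 and 7. These shares ran from 31.4% (95% exact binomial interval 28.5% to 34.4%, counting error only) on the first brown fat array to 54.7% (51.5% to 57.9%) at day 3. Probes of long intergenic non-coding RNA (lincRNA) loci reached 43.3% to 69.3% and all other probes 55.6% to 78.7%, and on each of the 10 arrays the element share was the lowest of the 3. The mark was also carried by 10.9% to 36.4% of 1200 spots of the design's own negative control probes (MM9NEGATIVE), and by 0.974% to 3.25% of 308 spots of Agilent's negative control (3xSLv1). Shares in the negative spots moved with those in the element probes: 13.8% and 23.8% on brown fat, 26.0% and 29.1% on saline white fat, 10.9% and 19.6% on CL-treated fat, and 32.3%, 36.4%, 24.2% and 29.8% at days 0, 3, 5 and 7. Their part in the differences of detection between groups was not tested.

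**Figure D1:**
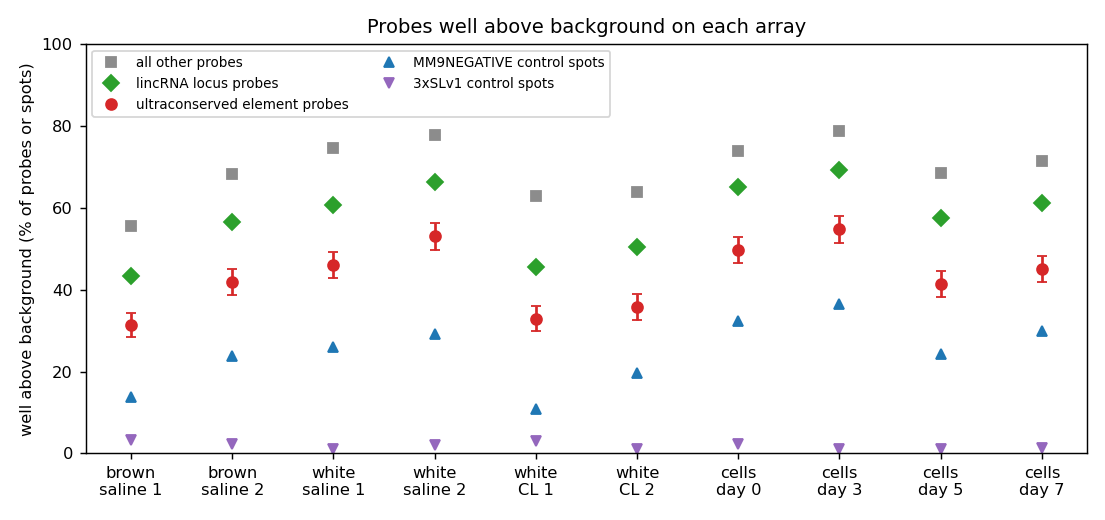
Share of probes or spots marked well above background (vertical axis, percent) on each of the 10 arrays (horizontal axis) for element probes (red, bars are 95% exact binomial intervals), lincRNA locus probes, all other probes and the 2 kinds of negative control spot. Element probes sit between 31.4% and 54.7%, below the lincRNA probes and above both controls on each array.

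How widely a probe was marked varied from all arrays to none. Of the 962 probes 240 (24.9%) were well above background on all 10 arrays, beside 37.5% of lincRNA probes and 49.5% of all probes, and 294 (30.6%) on none. The strands were alike in this: 114 plus and 126 minus probes were marked on all 10 arrays, and 140 plus and 154 minus probes on none. By element, 201 of 481 had a strand marked on all 10 arrays, 429 had one marked on at least 1 array, and 52 (10.8%, beside 4.75% of lincRNA loci) had neither.

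Some elements gave signal on both strands throughout, and others on 1 strand alone. Both strands were marked on all 10 arrays in 39 elements (8.11%, beside 15.1% of 2676 lincRNA loci). The plus strand was marked on all 10 arrays and the minus strand on none in 26 elements, and the reverse held in 36. Among the 39 are 4 elements with consecutive numbers, uc.45, uc.46, uc.47 and uc.48. The minus probe of uc.45 read 4.15 and 4.52 in brown fat, 5.09 and 4.91 in saline white fat, 4.98 and 4.74 in CL-treated fat, and 6.52, 5.11, 5.08 and 5.39 at days 0, 3, 5 and 7. Its values in the 3 tissue groups lay close together, and day 0 was the highest of the 10. Whether consecutive numbers share a transcript was not tested.

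Some probes separated cells from tissue or brown from white fat by the mark alone. The plus probes of uc.93, uc.180, uc.247 and uc.282 and the minus probe of uc.361 were marked on all 4 cell arrays and on none of the 6 tissue arrays. No probe showed the reverse. Negative control spots were marked at 24.2% to 36.4% on the cell arrays and 10.9% to 29.1% on the tissue arrays, which were scanned apart. Counts of these patterns over all probes were not made, so they cannot be read as particular to the elements. For uc.180+ the cell values were -2.85, -2.70, -3.14 and -3.15, and the tissue values ran from -5.93 to -3.74. All 4 cell arrays lay above all 6 tissue arrays, which largely follows from choosing the probe by its mark. Between the saline groups, 66 probes were marked on both white fat arrays and on neither brown fat array, and 3 (uc.232+, uc.392- and uc.394-) the other way round. Of these 3, uc.232+ and uc.394- were marked on none of the other 8 arrays. The negative control spots were also marked more on saline white fat, as given above, and their part in these counts was not tested. Of all probes, 55.2% and 67.8% were marked on the brown fat arrays and 74% and 77.3% on the saline white fat arrays. The matching counts over all probes were not made, so the imbalance cannot be read as particular to the elements.

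To see which element transcripts differ between brown and white fat after saline, the 440 element probes marked in both samples of 1 or more tissue groups were tested. Of these, 31 differed (limma, Benjamini-Hochberg adjusted p under 0.05 over 43542 probes): 24 were higher in brown fat and 7 lower. That is 7.05% of the element probes tested, beside 10.4% of all probes tested. By direction, 5.45% were higher and 1.59% lower, beside 5.53% and 4.86% of all probes. The median difference of the 440 was 0.02, and that of all 43542 was -0.12. By strand, 11 plus and 13 minus probes were higher, and 6 plus and 1 minus lower. Quantile normalization gave 45 higher and 6 lower, and the deposited value table, which lists 307 of the 440, gave 45 and 2. Normexp background correction gave 20 and 1, with 16 of these 21 among the 31. The split was more even with array weights (79 and 61) and in the saline groups alone (70 and 43).

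All 24 probes that were higher in brown fat were well above background on at least 1 brown fat array, and 20 of them on all 6 tissue arrays. None of the 7 that were lower in brown fat was marked on a brown fat array, so that only a bound can be given for them. They entered the test only through white fat, where they were high. Both counts rest on the 4 saline arrays. Without the first or the second brown fat array 0 and 2 probes were called, and without the first or the second saline white fat array 1 and 3. Without either CL-treated array, which share the estimate of spread, 113 were called.

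The plus strand of uc.417 showed the largest difference. It read 5.69 and 5.70 in brown fat (mean 5.70 ± 0.0056, SD, n = 2), 2.16 and 2.82 in saline white fat (2.49 ± 0.46) and 3.23 and 3.67 in CL-treated white fat (3.45 ± 0.31). In the cells it read 2.34, 2.67, 2.31 and 2.82 at days 0, 3, 5 and 7. The probe was well above background on all 10 arrays, and both brown fat arrays lay above the other 8. The brown fat level was 9.24-fold that of saline white fat (log2 difference 3.21, SE 0.39, limma adjusted p = 0.008158). The difference lay between 2.88 and 3.54 under 15 other settings. The call was kept in 13 of them and lost without the first brown fat array (adjusted p = 0.0638) and without the first saline white fat array (adjusted p = 0.05749). Among these 13, the fits without either CL-treated array repeat that of the saline groups alone, because a single CL-treated array adds nothing to the spread. CL-treated white fat was 0.96 above saline white fat, which did not pass (adjusted p = 0.8983).

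The opposite strand of uc.417 stayed near background. The minus probe read -3.13 and -3.71 in brown fat, -4.29 and -3.90 in saline white fat, -4.32 and -3.81 in CL-treated fat, and -3.05, -3.75, -3.35 and -3.80 in the cells. It was well above background on 6 of 10 arrays, 1 of them of brown fat, and did not enter the test. Both brown fat arrays lay above all 4 white fat arrays on this strand, and within the range of the 4 cell arrays.

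**Figure D2:**
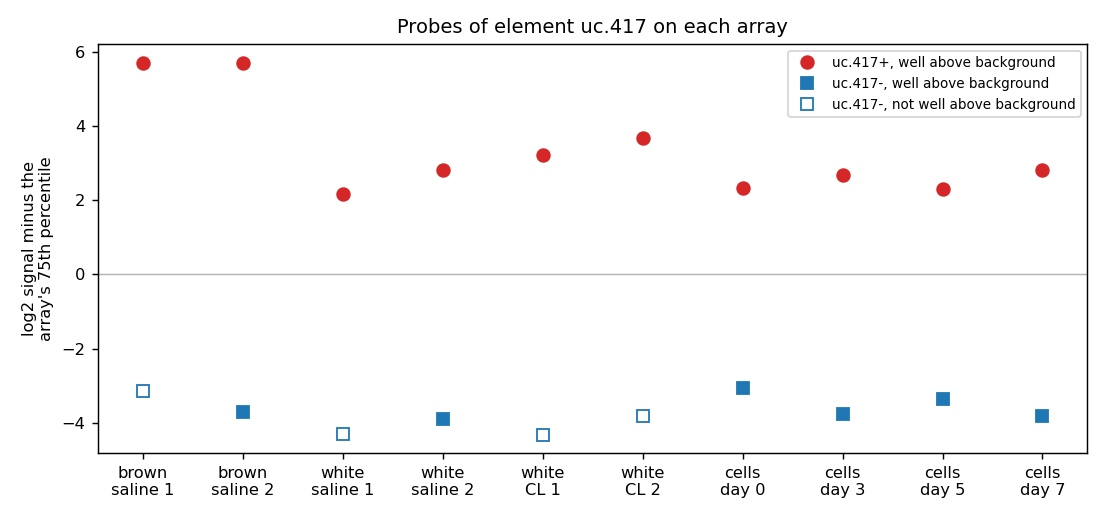
Log2 signal, centred on each array's 75th percentile (vertical axis), of the plus (red) and minus (blue) probe of uc.417 on each of the 10 arrays. Filled points are well above background and open ones are not. The plus strand reads 5.69 and 5.70 on the brown fat arrays and 2.16 to 3.67 on the white fat arrays.

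Several minus strand transcripts were also higher in brown fat. The probe uc.324- read 0.93 and 0.40 in brown fat, -1.97 and -2.19 in saline white fat, and -1.68 and -0.84 in CL-treated fat (difference 2.75, SE 0.43, adjusted p = 0.01597). For uc.21- the brown fat values were -0.48 and -0.51 and the saline white fat values -3.52 and -2.73 (difference 2.63, SE 0.56, adjusted p = 0.03381). Both probes lay higher on each brown fat array than on any white fat or cell array.

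Values of uc.92- were 2.56 and 1.78 in brown fat and -0.15 and 0.08 in saline white fat (difference 2.20). The probe uc.212- read 0.13 and -0.76 against -2.46 and -2.54 (difference 2.18). In neither did the brown fat arrays overlap a white fat array.

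A further pair of minus probes gave strong signal everywhere, and their white fat values after saline were the lowest of all groups. The probe uc.371- read 5.77 and 6.27 in brown fat, 3.80 and 4.20 in saline white fat, 5.23 and 4.71 in CL-treated fat, and 6.08 to 6.65 in the cells (difference 2.02, adjusted p = 0.0284). The probe uc.460- read 4.61 and 4.76 in brown fat, 2.61 and 2.65 in saline white fat, 4.18 and 3.48 in CL-treated fat, and 4.46 to 4.98 in the cells (difference 2.05, adjusted p = 0.02523). For both probes each cell array lay above all 4 white fat arrays.

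On the plus strand, uc.237+ (difference 2.19), uc.12+ (2.13), uc.208+ (2.06), uc.358+ (2.03), uc.16+ (2.01) and uc.339+ (1.92) were higher in brown fat, with adjusted p from 0.0232 to 0.045. For uc.12+ the brown fat arrays read -0.19 and 0.04 and the saline white fat arrays -2.21 and -2.22. The CL-treated arrays of this probe read -1.86 and -0.39, and so stood further apart than either saline pair.

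The probes uc.394- and uc.232+, marked only in brown fat, were also called. Both entered the test only through the brown fat arrays, where they were high, and both lost the call with no filter. The first read -2.33 and -2.30 in brown fat and -4.47 and -4.68 in saline white fat, where it was unmarked, and the brown fat level was at least 3.75-fold that of white fat (adjusted p = 0.03595). The second read -2.68 and -3.33 against -5.06 and -5.10, and was at least 2.33-fold higher (adjusted p = 0.02981). The probe uc.164- (difference 1.97, adjusted p = 0.0394) read -1.85 and -2.35 against -4.40 and -3.74. It was marked on no CL-treated array and not on both saline white fat arrays, so it too entered only through brown fat. Its call was also lost with no filter and with normexp background correction. In all 3 every white fat array lay below both brown fat arrays.

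Of the probes lower in brown fat, uc.70+ differed most. It read -5.27 and -4.57 in brown fat, -1.68 and -1.99 in saline white fat and -1.72 and -1.96 in CL-treated fat. In the cells it read -5.58, -6.01, -6.33 and -5.41, not well above background on any day. It was marked on all 4 white fat arrays and on no other, and was at least 3.11-fold lower in brown than in saline white fat (adjusted p = 0.008939).

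The probe uc.289+ had a like pattern, with -5.12 and -4.38 in brown fat, -2.08 and -2.23 in saline white fat and -0.85 and -1.57 in CL-treated fat, and was at least 2.50-fold lower in brown fat (adjusted p = 0.01888). It was marked on all 4 white fat arrays and at day 3 of culture. Smaller bounds held for uc.360+ (at least 1.19-fold lower) and uc.249- (at least 1.05-fold lower), both marked on both saline white fat arrays.

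The 31 calls rested on the saline arrays to an unequal degree. Of the 20 probes described here, 18 lost the call whichever of the 4 saline arrays was left out, and the highest adjusted p in such a fit ranged from 0.0638 (uc.417+) to 0.2996. With normexp background correction 9 of the 20 lost it, among them all 4 that were lower in brown fat. The difference of uc.70+ was then -0.73 (adjusted p = 0.1777), of uc.289+ -0.53, of uc.249- -0.15 and of uc.360+ -0.09.

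**Figure D3:**
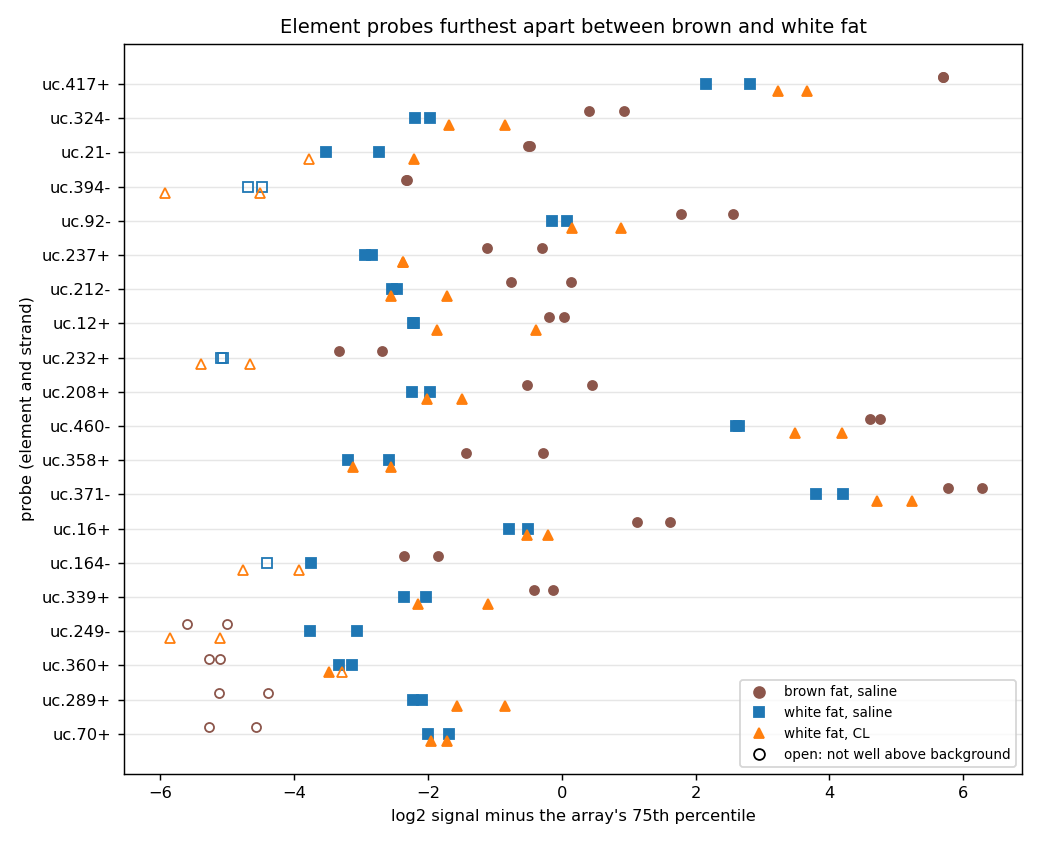
Log2 signal, centred on each array's 75th percentile (horizontal axis), of the 20 called element probes with the largest difference between brown and white fat (vertical axis), with 1 point per tissue array. Open points are not well above background. Brown fat points lie to the right of both saline white fat points in 16 probes, uc.417+ at the top, and to the left in 4, all 4 with open brown fat points.

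Opposite strands of an element were not called together. Of the 24 probes higher in brown fat, the opposite strand was tested in 10 and called in 0, and in 8 it was well above background on no tissue array. For the 7 lower probes the opposite strand was tested in 3 and called in 0. Of all element probes tested 7.05% were called, and of all probes 10.4%, so 0 calls among so few strands show no trait of the elements. The matching count was not made for lincRNA loci. Across the 108 elements with both strands tested, the difference between brown and white fat had the same sign on both strands in 66 (61.1%, beside 54.0% of 1005 lincRNA loci), with Pearson's r = 0.20 and Spearman's rho = 0.25. This is a description across elements measured on the same arrays.

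**Figure D4:**
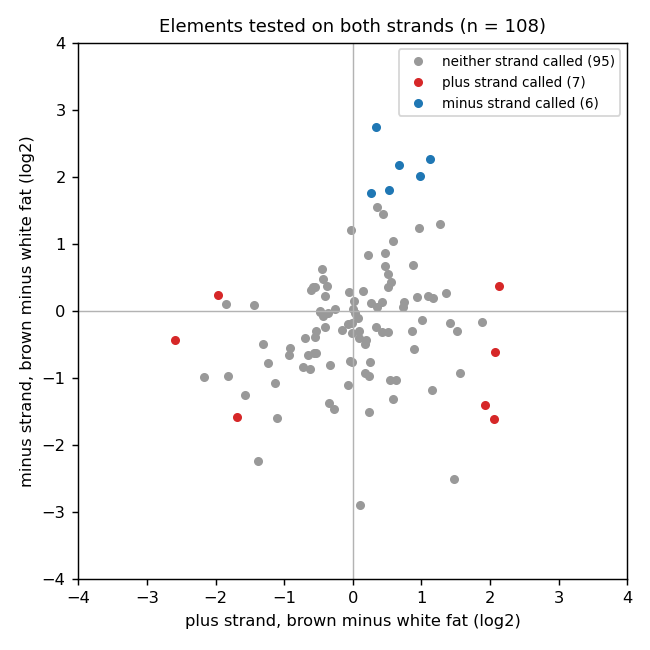
Difference between brown and white fat after saline (log2) of the plus strand (horizontal axis) and the minus strand (vertical axis), with 1 point for each of the 108 elements tested on both strands. The plus strand alone was called in 7 elements and the minus strand alone in 6. In the other 95 neither was called, and no element was called on both.

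Whether the 2 strands of an element differed between the tissues by unequal amounts was tested on the plus minus the minus value of each array, over 2550 elements and lincRNA loci. Of 332 elements tested, 4 were called (1.20%, beside 1.41% of all loci tested). In uc.339 the plus probe read -0.12 and -0.42 in brown fat and -2.36 and -2.03 in saline white fat, while the minus probe read -3.93 and -3.41 against -2.35 and -2.16. The strands differed in opposite directions, by 3.33 in all (SE 0.50, adjusted p = 0.03762). The minus probe was well above background on 8 of 10 arrays and not on the first brown fat array, so this size is uncertain. On its own the plus strand passed (adjusted p = 0.03979) and the minus strand did not (adjusted p = 0.06164).

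In uc.77 the plus probe read 1.43 and 1.89 in brown fat and -0.04 and 0.39 in saline white fat, and the minus probe -3.43 and -3.20 against -0.34 and -1.27. The strand difference was 3.99 higher in brown fat (SE 0.68, adjusted p = 0.04869), although neither strand passed alone (adjusted p = 0.05498 and 0.05149). The minus probe was not well above background on the first brown fat array.

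For the other called elements, uc.457 (adjusted p = 0.0417) and uc.78 (adjusted p = 0.04589), the minus probe was marked on none of the 10 arrays. Their strand differences therefore have no measurable size. The plus strand of uc.457 was higher in brown fat (1.77, adjusted p = 0.04605). The plus strand of uc.78 was lower (adjusted p = 0.04648), but was not marked on a brown fat array and has no bound above 1-fold.

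Among those just outside the threshold were uc.417 (2.53, adjusted p = 0.05101) and uc.208 (adjusted p = 0.06079), chosen after their values were seen. In the other direction, at the same adjusted p as uc.417, lay uc.324 (-2.41). At that of uc.208 lay uc.163 (-2.08) and uc.243 (-2.17). The plus probe of uc.208 was higher in brown fat, whereas its minus probe read -4.99 and -4.18 in brown fat and -2.63 and -3.31 in saline white fat. This minus probe was unmarked on both brown fat arrays, which gives a level at least 1.42-fold lower there (adjusted p = 0.05657). With each of the 4 saline arrays left out in turn, 0 elements were called in the strand test. Between CL-treated and saline white fat 0 of 332 elements were called (0% of all loci, 31 elements at an unadjusted p under 0.05), and between CL-treated white fat and brown fat 0 (0.353% of all loci, 44 elements at an unadjusted p under 0.05).

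To see whether β3-adrenergic stimulation altered element transcripts in white fat, CL-treated arrays were compared with saline arrays. No element probe passed limma's test (0 of 440, and 0% of all 43542 probes), and 35 element probes (7.95%, beside 5.46% of all probes) had an unadjusted p under 0.05. The smallest adjusted p of an element probe was 0.456. The CL-treated arrays differed from each other by more than 2-fold in 35.5% of the element probes, beside 11.8% in brown fat and 5.68% in saline white fat, and correlated at r = 0.895 across the 440 probes, beside 0.949 and 0.962. These arrays share the saline white fat arrays with the comparison of brown and white fat.

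The smallest unadjusted p-values among lower probes belonged to uc.37+, uc.119-, uc.249-, uc.78+ and uc.429-, none of which was well above background on a CL-treated array. The probe uc.37+ read -3.47 and -3.45 after saline and -5.24 and -5.08 after CL, at least 1.11-fold lower (adjusted p = 0.456). Among higher probes they belonged to uc.264-, uc.436-, uc.395+, uc.460- and uc.408-. Values of uc.436- were -0.17 and 0.16 after saline and 1.05 and 1.40 after CL (difference 1.23, adjusted p = 0.7221), and those of uc.408- 2.48 and 3.09 against 3.72 and 4.48 (1.31, adjusted p = 0.7785). In both, the CL-treated arrays lay above the saline arrays. The probe uc.264- was the only one marked on both CL-treated arrays and neither saline white fat array, with -3.56 and -3.05 against -5.94 and -4.75. The reverse held for 81 element probes, on arrays where negative control spots were also marked less after CL. Of all probes, 62.4% and 63.4% were marked after CL, beside 74% and 77.3% after saline, and the matching counts were not made.

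Set against brown fat, CL-treated white fat differed in 10 of the 440 element probes (2.27%, beside 3.49% of all probes), 6 higher (1.98% of all probes) and 4 lower (1.51% of all probes). This comparison shares the brown fat arrays with the one above. Lower than in brown fat were uc.394- (at least 2.44-fold), uc.164- (at least 2.84-fold), uc.232+ (at least 1.52-fold) and uc.417+, which stayed 4.75-fold below brown fat (difference -2.25, SE 0.39, adjusted p = 0.03145). Higher than in brown fat were uc.289+ (at least 4.82-fold), uc.70+ (at least 3.11-fold), uc.208- (at least 2.12-fold), uc.193+ (at least 1.49-fold), uc.360+ (at least 1.07-fold) and uc.436- (difference 2.02, adjusted p = 0.0347). The probes uc.394-, uc.164- and uc.232+ entered the test only through brown fat, where they were high. All the higher probes but uc.436- entered only through white fat, where they were high. With no filter every call but those of uc.289+ and uc.70+ was lost.

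The probe uc.436- was the only one of the 6 higher probes that was well above background in brown fat. There it read -0.65 and -0.93 against 1.05 and 1.40 in CL-treated fat. Without the first or the second brown fat array 0 and 2 probes were called. Without the second CL-treated array 110 were called, and without either saline white fat array 4.

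Elements with published work were followed on both strands. Of 30 probes for 15 such elements, 6 were well above background on all 10 arrays, 14 on none and 10 on some. Neither strand was marked on any array for uc.372, studied in liver lipid synthesis, nor for uc.63, uc.283 and uc.454, studied in tumours. Of 12 probes tested, uc.417+ alone was called between brown and white fat, and the 10 others marked in both tissues had differences from -0.85 to 0.90.

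The remaining probe was uc.333-, the minus strand of the element studied in insulin sensitivity. It read -4.90 and -3.61 in brown fat, -1.79 and -2.67 in saline white fat and -2.11 and -4.30 in CL-treated fat. Neither brown fat array carried the mark, which gives a level at least 2.09-fold lower in brown than in saline white fat, without passing the test (adjusted p = 0.1305), and the CL-treated arrays were more than 2 log2 units apart.

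Both strands of uc.173, studied in the intestinal epithelium, were marked on all 10 arrays. The plus strand read 1.38 to 2.23 in tissue and 2.16 to 2.49 in cells, and the minus strand -0.13 to 1.29 and 0.42 to 0.58. The minus strand was highest in brown fat, at 1.29 and 1.12, without passing the test (difference 0.87, adjusted p = 0.1997). The probes uc.338+, uc.475+ and uc.160-, of elements studied in tumours, were also marked on all 10 arrays and were at most 0.90 higher in brown than in saline white fat.

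In differentiating brown adipocytes, more element probes were lowered than raised. With 1 array per day no test was made, and a probe was counted when it was at least 2-fold from day 0 on each of days 3, 5 and 7. Of 572 element probes well above background on at least 1 day, 9 were raised (1.57%, beside 5.36% of all probes) and 34 lowered (5.94%, beside 6.20% of all probes). The median change at day 7 was -0.24 over element probes and -0.13 over all probes. Scaling each array to its median in place of the 75th percentile moved these to -0.06 and 0.05 and gave 16 raised and 29 lowered. Day of culture and position on the slide cannot be told apart.

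Most of the lowered probes lost the background mark after day 0. All 34 were well above background at day 0, 21 of them on that day only, and 8 were so on all 4 days. The counting rule makes day 0 the highest of the 4 days, and a probe needed the mark on at least 1 day. The mark at day 0 therefore largely follows from the rule. The 21 entered only through day 0, where they were high. The probe uc.82+ read -1.37 at day 0 and -5.93, -6.33 and -6.40 after it, at least 6.51-fold lower at day 7. The probe uc.328- read -1.62 and then -6.98, -6.33 and -6.40, at least 5.47-fold lower. Apart from day 0, uc.328- was marked on no array of cells or tissue.

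Among probes well above background on all 10 arrays, uc.451- lay furthest below its day 0 value. It read 0.93 at day 0 and -2.89, -2.63 and -2.58 at days 3, 5 and 7, 11.4-fold lower at day 7. The tissue values of this probe, -3.52 to -2.35, lay near those of the later days. Its neighbour in number, uc.452-, followed the same course, with 1.73 at day 0 and -1.14, -0.59 and -1.26 after it.

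Both strands were lowered in 2 elements, uc.23 and uc.193. The minus strand of uc.193 read 2.08, 0.67, 0.54 and -0.69 at days 0, 3, 5 and 7 and was well above background throughout. The plus strand read -2.20, -3.65, -4.09 and -5.12 and carried the mark on days 0 and 3. Both strands were highest at day 0, as the counting rule requires, and lowest at day 7. In tissue uc.193+ was unmarked in brown fat and at least 1.14-fold lower there than in saline white fat (adjusted p = 0.03892), and uc.193- did not pass (-1.59, adjusted p = 0.1911).

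Of the 9 raised probes, 4 were well above background on all 4 days. The probe uc.186+ read -3.44 at day 0 and -2.34, -1.61 and -1.48 at days 3, 5 and 7, and -1.01 to 0.07 in tissue. The probe uc.462- read -1.31 and then 0.61, 0.62 and 0.33, uc.161+ read -1.56 and then -0.08, 0.51 and -0.28, and uc.409- read -3.28 and then -1.93, -1.79 and -1.52. The counting rule itself makes day 0 the lowest of the 4 days in all 4 probes. Only uc.186+ and uc.409- were highest at day 7.

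The mark of uc.375+ appeared in culture alone. It read -6.07 at day 0 and -2.79, -3.19 and -2.95 after it, at least 2.09-fold higher at day 7, and carried the mark on no tissue array. Raised probes at low signal were uc.329+ (at least 1.72-fold higher at day 7), uc.25- (at least 1.01-fold), uc.157+ and uc.279-, and the last 2 carried the mark on 1 day each.

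**Figure D5:**
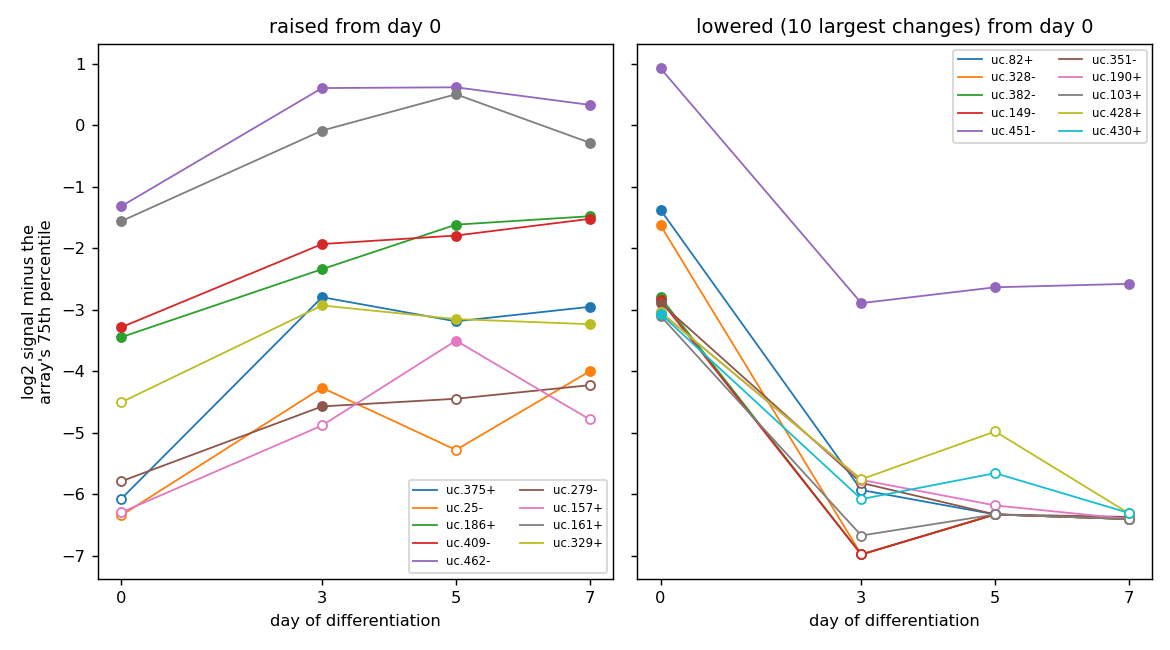
Log2 signal, centred on each array's 75th percentile (vertical axis), by day of differentiation (horizontal axis) for the 9 raised element probes (left) and the 10 lowered ones with the largest change at day 7 (right), 1 array per day. Open points are not well above background. Of the 10 lowered probes, uc.451- alone stays well above background after day 0.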

How the data were processed

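Cy3-labelled cRNA from total RNA was hybridised to an Arraystar mouse lncRNA array, per the labels. Per the file headers, the deposited spot intensity (processed signal, background subtracted) and the flags come from Agilent Feature Extraction 11.0.1.1; the submitters' processing notes name version 9.1. The deposited log2 value table lists 18997 probes, 310 of them element probes, and its normalization is unknown. Everything below was computed in R 4.3.3. Control and outlier spots were left out, which left 2 element probes without a value on 1 array each (uc.386- in the second brown fat array, uc.319- at day 0). Processed signals were set to log2 and centred on the array's 75th percentile (213.3 to 585.4 units).

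Probes flagged well above background in both samples of 1 or more tissue groups were fitted with limma 3.58.1 (lmFit, eBayes) on 6 arrays, with 3 residual and 4.46 prior degrees of freedom, two-sided. Scripts were tested on simulated data. Where no array of a group was flagged for a probe, its fold is a bound, "at least N-fold": each dim array was given the larger of its lowest flagged signal and the probe's own value, and these were averaged and compared with the bright group's average. Strands were compared on the same arrays by their difference.

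Probes are named where called (up to 30, otherwise the 20 largest differences; with none called, the 5 smallest p in each direction), as the 10 raised and 10 lowered with the largest change in culture, as called strand differences, and for 15 elements with published work; exceptions are said to be chosen after their values were seen, as were uc.45, uc.452-, uc.193, uc.23 and the probes marked in 1 kind of sample. The members and lists were chosen with earlier results of these data known. Tissue arrays shared scan 1 and cell arrays scan 2. Each group held its own positions on the slide, so group and position cannot be told apart. Fewer cells of a type and less RNA per cell cannot be told apart in these bulk samples. The number of arrays limits the precision.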

Additional observations from a re-analysis of the deposited data

How the results depend on the processing

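The 31 element probes called between brown and white fat became 51 with quantile normalization, 49 with median scaling, 47 with the deposited value table, 4 with no filter, 140 with array weights and 113 in the saline groups alone. Leaving out 1 array gave 0 to 113. The labels give no shared animal, day or litter for the replicate numbers, so the samples were not paired. Deviations of the first replicate from its group mean correlated at -0.02 and -0.08 between brown fat and the white fat groups. Between saline and CL-treated white fat they correlated at 0.50, and whether these 2 groups were paired was not tested. A replicate block gave 44 (31 higher, 13 lower), with all 31 of the main fit among them. For CL against saline in white fat the count stayed 0 under all alternatives except without the second saline array, where it was 1 (leave-one-out range 0 to 1, 0 with the replicate block). For CL-treated white fat against brown fat the 10 became 2 with no filter, 1 with array weights, 16 with the replicate block and 4 in these groups alone, and leaving out 1 array gave 0 to 110. The 4 strand differences became 8 with normexp, 0 with no filter and 0 with the replicate block, and 0 to 3 with 1 array left out. The differences of uc.323+ (0.18) and uc.338- (0.015) turned positive with normexp, neither near the threshold. The cause of these shifts was not tested. Shares of all probes called in the same fits are not given here. Whether element probes moved apart from the rest of the array cannot be read from these counts.

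In culture the 43 probes counted (9 raised, 34 lowered) became 9 (1 and 8) with normexp, 10 (4 and 6) in the deposited value table, 12 (4 and 8) among probes marked on all 4 days, and 95 (23 and 72) at 1.5-fold. Median scaling gave 16 raised. A limma trend on the day called 0 probes (48 at an unadjusted p under 0.05). Above the 95th percentile of negative spots were 131 and 141 element probes in brown fat, 161 and 142 in saline white fat, 199 and 137 in CL-treated fat, and 141, 222, 243 and 223 at days 0, 3, 5 and 7. By the software's looser flag, positive and significant, the counts were 543 and 671, 771 and 845, 544 and 651, and 712, 759, 619 and 665. Of the single probes named, 102 of 440 values (probes by alternative settings) between brown and white fat lost the call. These 440 include the values of published probes that were not called in the main fit and had no call to lose, so the share understates the loss among called probes. Between CL-treated white and brown fat 68 of 134 values lost the call, and of the strand differences 32 of 44. Signal over background limits these values: 294 element probes were marked on no array, and 652 are not in the deposited table.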
